A study of Mus musculus with 23 samples.

Results

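The 44 genes described here belong to the senescence-associated secretory phenotype, the set of proteins that senescent cells release or expose. They were chosen by name, with earlier results of these data known, as were the further gene lists used below. They were read out in the hippocampus of mice in which a senescence regulator, an Alzheimer model allele, or both had been altered. All 44 names were found among the 37173 genes of the deposited count table, and 37 of the 44 had enough reads for the test across genes. By role they were 10 cytokines, 4 chemokines, 4 cytokine receptors, 6 insulin-like growth factor (IGF) binding proteins, 5 matrix metalloproteinases, 3 inhibitors of metalloproteinases, 3 genes of plasminogen activation, 5 growth and vessel factors, 2 adhesion molecules and 2 nuclear proteins.

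Polyadenylated RNA was sequenced from both hippocampi of each of 23 mice at about 5 months of age, with 1 library per mouse. The APP NLGF P16 KO group (n = 6) was homozygous for the App knock-in and for the P16 knockout, and the APP NLGF group (n = 5) carried the homozygous knock-in alone. The P16 KO group (n = 6) carried the homozygous knockout alone, and the WT group (n = 6) carried neither allele. The NLGF allele is a knock-in of familial Alzheimer mutations and a humanised amyloid sequence into the mouse App gene, so it is expressed from App's own promoter in every cell type that uses that gene. The labels gave neither sex nor litter, and the deleted part of the P16 locus was not given in the sources used here.

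Senescent cells stop dividing and, in many tissues, secrete cytokines, chemokines, growth factors, proteases and protease inhibitors that act on neighbouring cells. The programme is driven largely by NF-kappaB and C/EBP-beta, with upstream interleukin signalling at the cell surface feeding back on it. p16, encoded by Cdkn2a, restrains the cyclin D kinases and is a widely used marker of senescent cells. Many of these genes are not specific to senescence: in the brain, astrocytes, microglia, vascular cells, the meninges and the choroid plexus make several of them in the healthy state.

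Total counts ran from 40693561 to 61178839 per library. The App labels were checked with microglial genes induced around amyloid plaques: Cst7, a cystatin of plaque-associated microglia, averaged 4.66 ± 1.11 and 5.97 ± 1.58 CPM (read counts scaled to the library's total) in APP NLGF P16 KO and APP NLGF mice, against 0.130 ± 0.0988 and 0.177 ± 0.105 CPM in P16 KO and WT mice (SD). Cdkn2a did not give such a check. The APP NLGF P16 KO libraries held 0, 6, 6, 2, 8 and 2 Cdkn2a reads against 2, 6, 9, 4 and 4 in APP NLGF libraries (exact permutation test, two-sided, p = 0.580). P16 KO libraries held 0, 1, 2, 1, 0 and 0 reads against 6, 1, 3, 0, 5 and 2 in WT libraries (exact p = 0.0563). The 2 groups labelled P16 KO also differed, with 24 reads in APP NLGF P16 KO against 4 in P16 KO libraries. That exact p was 0.0303, unadjusted, and 0.00433 to 0.0606 when single libraries were left out. APP NLGF libraries held 25 reads against 17 in WT libraries (exact p = 0.113). The loss of p16 was therefore not shown by these reads, which also come from the Arf transcript of the same gene, and P16 KO below refers to the libraries labelled so. By its squared Mahalanobis distance over 5 principal components (13.1, with a limit of 11.1), 1 library stood apart, APP NLGF P16 KO 21. Its oligodendrocyte marker sum of 8765 CPM was the highest of all 23 libraries, with 6856 CPM in the next, APP NLGF P16 KO 23. The lowest in that group was 5417 CPM.

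The 250 bases before the annotated start of 6 members are shown because these genes carry the results below or the best known control by NF-kappaB. They are the scarce cytokine Il6 and chemokine Cxcl1, the protease Mmp12, the cytokine Tgfb1, the receptor Il1r1 and the binding protein Igfbp5. Sequences are from RefSeq on GRCm38.p6, 5′ to 3′ on the strand of the gene, in lower case. Capitals mark matches to the NF-kappaB decamer or to the AP-1 motif TGANTCA, searched on both strands.
Il6 (chr5:30012864-30013113, plus strand): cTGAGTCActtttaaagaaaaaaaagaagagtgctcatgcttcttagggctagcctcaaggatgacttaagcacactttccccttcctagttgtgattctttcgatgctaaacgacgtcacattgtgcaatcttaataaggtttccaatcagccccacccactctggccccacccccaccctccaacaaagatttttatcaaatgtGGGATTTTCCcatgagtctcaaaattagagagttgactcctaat
Cxcl1 (chr5:90890995-90891244, plus strand): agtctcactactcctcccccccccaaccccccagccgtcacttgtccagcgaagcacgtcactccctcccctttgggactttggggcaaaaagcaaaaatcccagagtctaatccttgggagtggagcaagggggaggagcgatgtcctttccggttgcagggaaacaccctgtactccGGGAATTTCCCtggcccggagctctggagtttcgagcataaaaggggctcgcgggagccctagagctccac
Mmp12 (chr9:7344147-7344396, plus strand): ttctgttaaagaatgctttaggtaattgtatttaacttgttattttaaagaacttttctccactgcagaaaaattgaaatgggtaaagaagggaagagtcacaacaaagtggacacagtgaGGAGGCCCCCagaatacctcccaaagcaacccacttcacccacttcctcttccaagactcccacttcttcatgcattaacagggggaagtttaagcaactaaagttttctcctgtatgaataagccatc
Tgfb1 (chr7:25686752-25687001, plus strand): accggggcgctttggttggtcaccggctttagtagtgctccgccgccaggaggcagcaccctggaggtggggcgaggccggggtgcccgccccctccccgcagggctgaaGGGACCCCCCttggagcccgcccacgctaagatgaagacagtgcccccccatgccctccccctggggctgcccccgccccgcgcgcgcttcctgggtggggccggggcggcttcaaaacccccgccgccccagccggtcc
Il1r1 (chr1:40224830-40225079, plus strand): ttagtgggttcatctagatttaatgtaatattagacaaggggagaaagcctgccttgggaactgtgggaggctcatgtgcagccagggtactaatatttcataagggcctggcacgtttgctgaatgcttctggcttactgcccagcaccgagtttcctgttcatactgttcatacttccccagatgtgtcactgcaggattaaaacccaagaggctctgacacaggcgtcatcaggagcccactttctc
Igfbp5 (chr1:72874866-72875115, minus strand): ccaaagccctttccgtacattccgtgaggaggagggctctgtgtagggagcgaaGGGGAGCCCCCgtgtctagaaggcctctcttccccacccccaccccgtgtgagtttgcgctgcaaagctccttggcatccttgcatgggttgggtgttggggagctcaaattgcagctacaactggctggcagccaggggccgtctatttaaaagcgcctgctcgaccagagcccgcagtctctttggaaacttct
The NF-kappaB decamer was found in 8 of the 37 members with a promoter entry (21.6%), against 7.25% of 32841 promoters of the same length. These 8 were Csf1, Cxcl1, Cxcl2, Igfbp5, Il6, Mmp12, Tgfb1 and Vegfa. The AP-1 motif was found in 4 of 37 members (10.8%), namely Il1a, Il6, Mmp3 and Plaur, against 6.75% of promoters. Both motifs occurred together in Il6. The Igfbp5 window held 4 overlapping matches, at 2 neighbouring positions on both strands, and the Il1r1 window held neither motif. Each member counted with 1 promoter, the entry nearest its annotated start, while the 32841 promoters were all entries and not 1 per gene. Member promoters had a median GC content of 59.2%, against 52.4% over all promoters, and a match is a string of letters and not a shown binding site.

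Binding proteins and protease inhibitors held the highest levels of the secretory set in hippocampus, and Il6 and Tnf, among the best known cytokines of the phenotype, were close to the floor. Averaged over 23 libraries, 21 members were above 10 CPM, 11 lay between 1 and 10 CPM and 12 were below 1 CPM. Per kilobase of exon, which allows genes to be compared, Timp2 was highest at 104 CPM per kilobase. Timp2, on chr11:118301069-118355740 (GRCm38, minus strand), encodes a secreted inhibitor of matrix metalloproteinases. It was followed by Igfbp2 (29.8), Serpine2 (27.1), Igfbp5 (25.6) and Igfbp4 (20.5 CPM per kilobase). Il18 was the highest of the cytokines at 17.3 CPM per kilobase, and Cxcl12 of the chemokines at 7.91. At the other end, Il6 stood at 0.0249, Mmp12 at 0.0110, Cxcl2 at 0.00539 and Mmp3 at 0.00470 CPM per kilobase. The level of Timp2 was above that of each other member in all 4 genotypes.

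**Figure D1:**
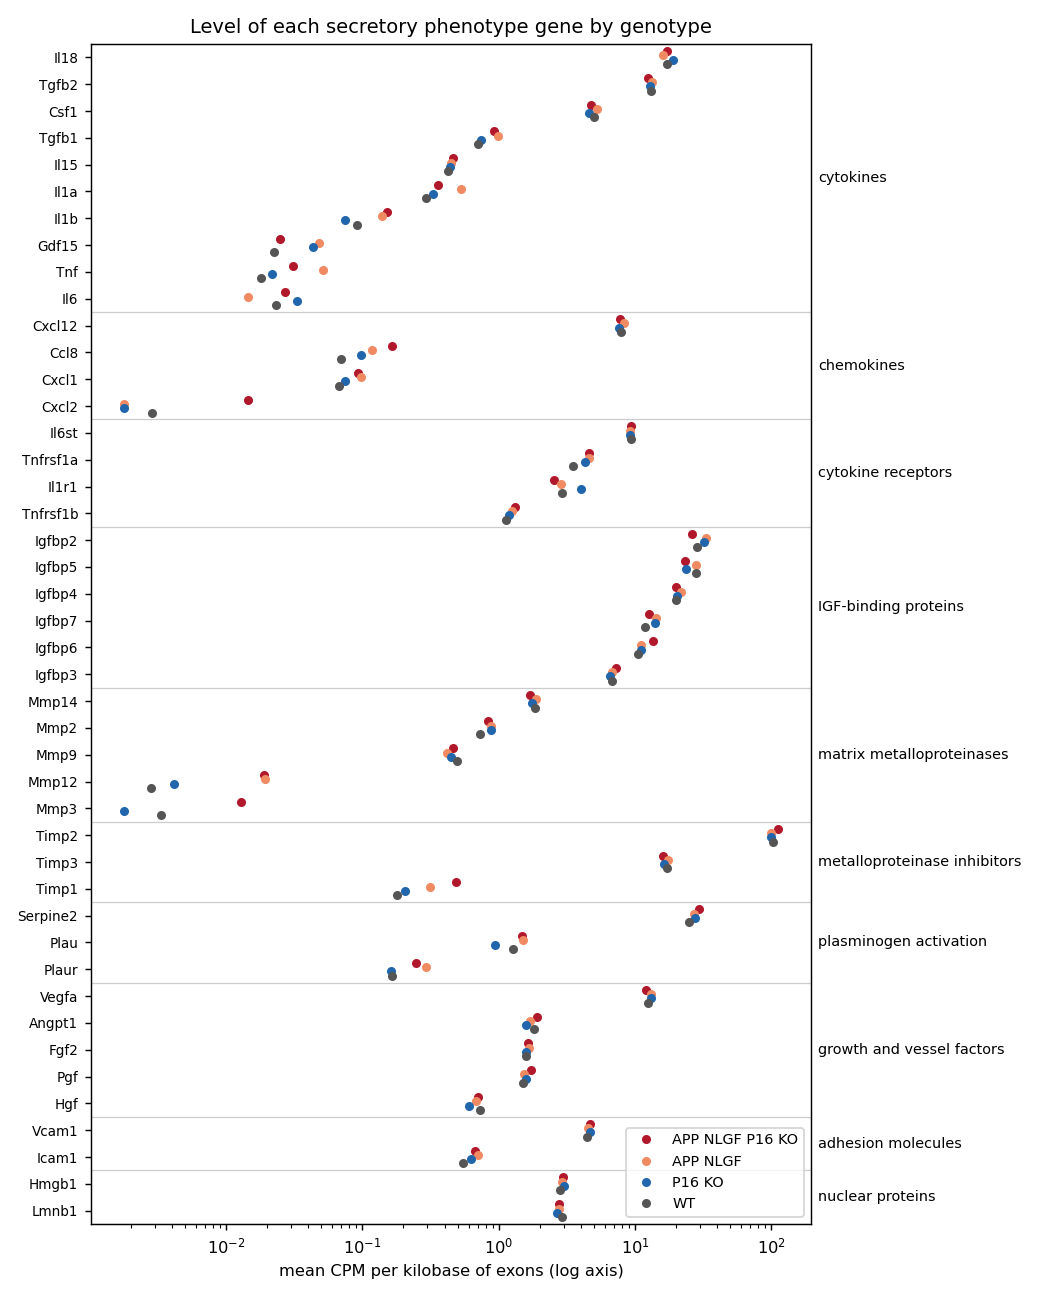
Mean level of each of the 44 members in the 4 genotypes, in CPM per kilobase of exon on a log axis, ordered within role; each point is the mean of 6 libraries (5 for APP NLGF), and Mmp3 has no APP NLGF point because its level there was 0. Genes differ from each other by orders of magnitude, from Timp2 at the top to Mmp3 and Cxcl2 at the bottom, while the 4 genotypes of most genes lie close together.

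Few members differed between genotypes. In the edgeR quasi-likelihood test, adjusted by Benjamini-Hochberg over 19423 genes, 0 of 37 members passed 0.05 for APP NLGF minus WT, where 0.319% of all genes were called, and 0 for P16 KO minus WT, where 0.309% were called. For APP NLGF P16 KO minus APP NLGF the count was 0 of 37, beside 0.0309% of all genes. Leaving out single libraries moved the count over all genes from 60 to between 7 and 238 for P16 KO minus WT, from 6 to between 2 and 4150 for APP NLGF P16 KO minus APP NLGF, and from 48 to between 29 and 61 for APP NLGF P16 KO minus P16 KO. At an unadjusted p under 0.05, APP NLGF minus WT held 4 members (10.8%, beside 8.54% of all genes) and P16 KO minus WT 6 (16.2%, beside 15.8%). APP NLGF P16 KO minus APP NLGF held 3 (8.11%, beside 23.5%) and APP NLGF P16 KO minus P16 KO 9 (24.3%, beside 7.89%). DESeq2 called 2 members (Tgfb1 and Tnfrsf1a) for APP NLGF minus WT, where it called 153 of all genes. It called 2 (Il1r1 and Tnfrsf1a) for P16 KO minus WT, beside 470 genes, and 0 for APP NLGF P16 KO minus APP NLGF, beside 434. For APP NLGF P16 KO minus P16 KO, 1 of 37 members fell, Il1r1, where 0.247% of all genes were called, 0.0257% as lower. The difference between the App effects in the 2 P16 genotypes (the interaction) called 0 members and 0% of all genes. At an unadjusted p under 0.05 the interaction held 5 members (13.5%) and 1021 of all genes (5.26%), and DESeq2 called 0 members and 1 gene.

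Averaging the App effect over both P16 genotypes, which uses all 23 libraries, gave 2 of 37 members higher (5.41%), Tgfb1 and Plau, where 0.793% of all genes were called, 0.649% as higher. Averaging the P16 effect over both App genotypes gave 1 member higher, Serpine2, and 1 lower, Igfbp5. That is 5.41% of the members, where 13.0% of all genes were called, 7.66% as higher and 5.32% as lower. At an unadjusted p under 0.05 the average App effect held 9 members (24.3%, beside 10.4% of all genes) and the average P16 effect 6 (16.2%, beside 31%). The median log2 fold change over the 37 members was 0.06 for the average App effect and 0.00 for the average P16 effect, beside 0.00 over all genes tested in both. These 2 averages are built from the same libraries as the 4 pairwise comparisons, and comparisons that share a genotype share its libraries.

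Most members had narrow intervals. The 95% confidence interval of the fold change lay within 1.5-fold in either direction for 31 of 37 members for the average App effect and for 34 of 37 for the average P16 effect. The pairwise comparisons gave 27 of 37 members for APP NLGF minus WT, 29 for P16 KO minus WT, and 30 both for APP NLGF P16 KO minus APP NLGF and for APP NLGF P16 KO minus P16 KO. For the interaction 22 of 37 intervals were that narrow. The 6 members with wider App intervals were Il1a, Il1b, Cxcl1, Timp1, Plau and Plaur, and the 3 with wider P16 intervals were Il1b, Igfbp2 and Timp1.

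**Figure D2:**
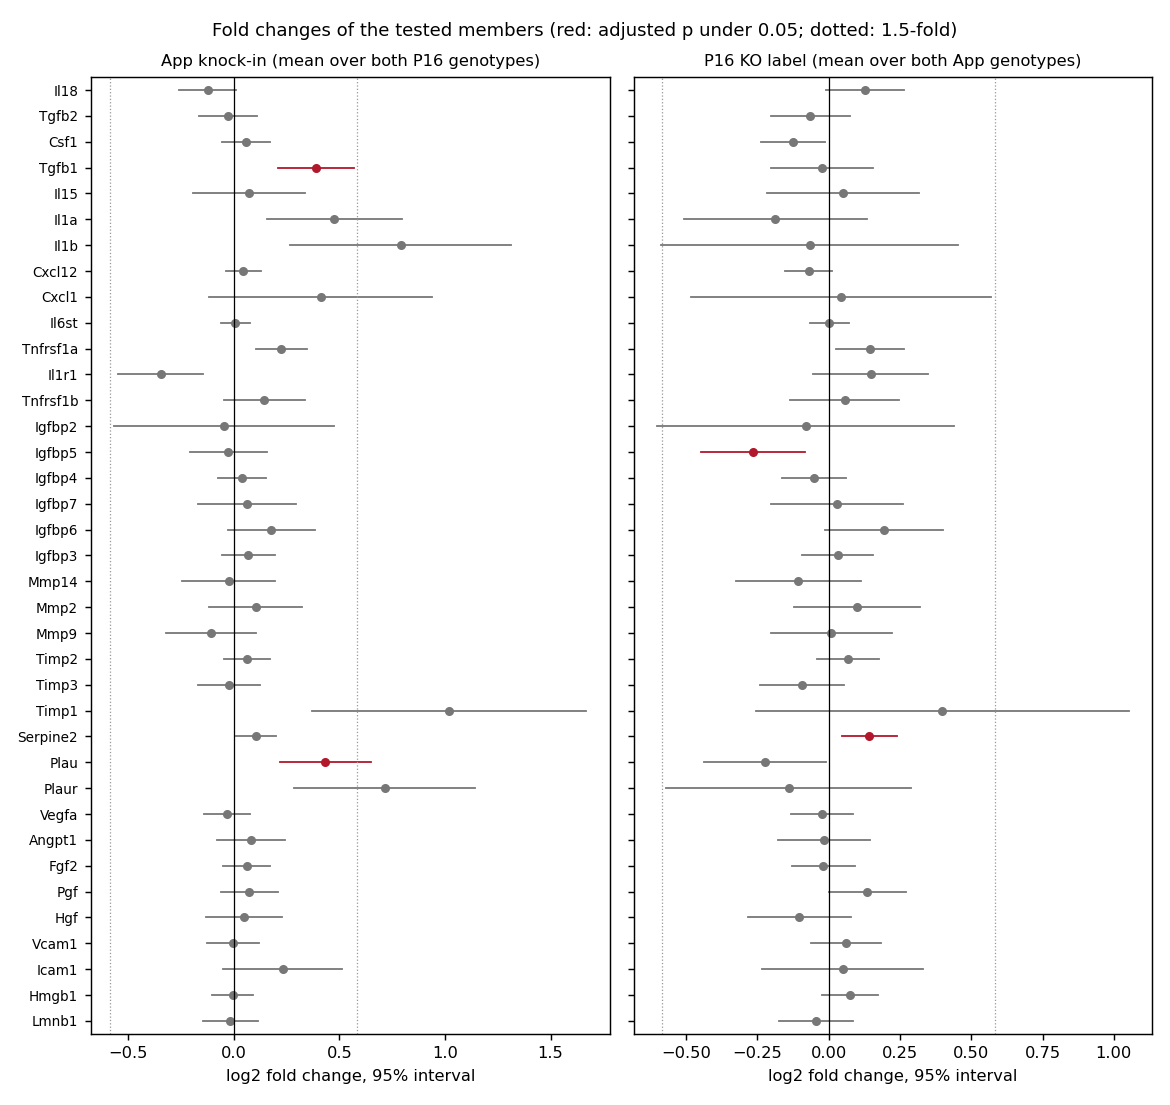
Log2 fold change of each of the 37 tested members with its 95% interval, left for the App knock-in and right for the P16 KO label, each averaged over the other factor. Red marks an adjusted p under 0.05 (Tgfb1 and Plau on the left, Igfbp5 and Serpine2 on the right), and dotted lines mark 1.5-fold.

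Among the cytokines, Tgfb1 rose in App knock-in mice. Tgfb1 (ENSMUSG00000002603, chr7:25687002-25705077, plus strand) encodes transforming growth factor beta, which is secreted in a latent form and which microglia both make and need. Its levels in APP NLGF P16 KO mice had a lowest value of 3.66, a median of 4.59 and a highest of 5.66 CPM. The APP NLGF mice had 4.84, 4.30, 5.99, 5.20 and 4.45 CPM. P16 KO mice spanned 3.07 to 4.32 CPM with a median of 3.76, and WT mice 2.96 to 4.27 CPM with a median of 3.65. All 5 APP NLGF libraries lay above every WT library, as for 1.07% of 22806 genes with 50 reads or more, while the 2 groups labelled P16 KO overlapped. The average App effect was a log2 fold change of 0.39 ± 0.09 (SE; adjusted p = 0.0272), with 10 of 11 knock-in libraries above the mean of the group of the same P16 genotype without the knock-in. The call was lost when WT 1, WT 2, WT 3, P16 KO 10, APP NLGF 15, APP NLGF 16 or APP NLGF P16 KO 22 was left out, with a highest adjusted p of 0.0751.

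The same mice carried more microglial RNA. Of 15 microglia markers, 8 rose in the average App effect, and of 15 plaque-associated markers 9 rose. The summed level of the 15 microglia markers was 693 to 784 CPM in APP NLGF P16 KO and 644 to 764 CPM in APP NLGF mice, against 558 to 615 CPM in P16 KO and 503 to 591 CPM in WT mice. All 15 had reads in every library. In bulk tissue, a change in the number of cells of a type and a change in the RNA made per cell cannot be told apart. With the microglial sum as a term, the log2 fold change of Tgfb1 was 0.48 (adjusted p = 0.621), but that sum does not overlap between knock-in and other libraries, so the 2 cannot be told apart by such a fit.

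The interleukins made by activated microglia passed no contrast. Il1a, an alarmin cytokine, had 0.713 ± 0.204 and 1.05 ± 0.322 CPM in APP NLGF P16 KO and APP NLGF mice, against 0.651 ± 0.201 and 0.581 ± 0.0739 CPM in P16 KO and WT mice (average App log2 0.48 ± 0.16, adjusted p = 0.212). Il1b, the secreted inflammasome product, had 0.290 ± 0.0603 and 0.267 ± 0.181 CPM in the knock-in groups against 0.141 ± 0.0313 and 0.174 ± 0.0846 CPM (log2 0.79 ± 0.25, adjusted p = 0.202). All 6 APP NLGF P16 KO libraries lay above all 6 P16 KO libraries for Il1b, as for 0.316% of 22806 genes with 50 reads or more. All 5 APP NLGF libraries lay above all 6 WT libraries for Il1a, as for 1.07% of those genes. Both genes have annotated antisense partners (Gm14023 and Il1bos), and whether the counting used strand was not given in the sources used here. The same limit holds for Timp3, Igfbp7, Tgfb2, Vcam1, Angpt1, Fgf2, Icam1 and Hmgb1, which also share exon sequence in antisense with another gene.

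The other cytokines tested passed no contrast either. Tgfb2, the most abundant cytokine by CPM, averaged 71.9 ± 10.6 CPM in APP NLGF P16 KO, 76.8 ± 6.02 in APP NLGF, 74.5 ± 8.18 in P16 KO and 76.3 ± 8.27 in WT mice. Its average P16 log2 fold change of -0.06 had an interval of -0.20 to 0.07. The remaining ones were Il18, a cytokine activated by inflammasomes, Csf1, the microglial growth factor, and Il15, a lymphocyte growth factor. Csf1 had an average P16 log2 fold change of -0.13 ± 0.05 (adjusted p = 0.122).

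Il6, Tnf and Gdf15, the cytokines most often used to show a secretory phenotype, had too few reads for the test across genes. Il6 gave 21 reads in 6 APP NLGF P16 KO libraries and 9 in 5 APP NLGF libraries, against 26 in 6 P16 KO and 19 in 6 WT libraries. Tnf gave 17 and 21 reads in the knock-in groups against 11 and 10. Gdf15, a stress-induced cytokine, gave 16 and 24 reads against 26 and 14. None of the 12 exact permutation tests of these 3 genes reached 0.05 (smallest p = 0.121, Tnf in APP NLGF minus WT). Differences of the sizes seen could not be told from the spread between libraries at this depth.

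Of the chemokines, Cxcl12, which vascular and meningeal cells make to guide leukocytes and precursor cells, was the only abundant member. It averaged 63.7 ± 3.73 CPM in APP NLGF P16 KO, 68.3 ± 3.90 in APP NLGF, 62.8 ± 3.66 in P16 KO and 64.6 ± 5.63 in WT mice, and its average P16 log2 of -0.07 had an interval of -0.15 to 0.01. Cxcl1, a neutrophil attractant, had 58 and 47 reads in APP NLGF P16 KO and APP NLGF mice against 45 and 43 in P16 KO and WT mice, and did not pass. Cxcl2 had 10 reads in APP NLGF P16 KO libraries, 7 of them in library 22, and 1, 1 and 2 reads in the APP NLGF, P16 KO and WT groups. Ccl8, a monocyte attractant, had 27, 15, 15 and 12 reads in that order of genotypes, 14 of the 27 in APP NLGF P16 KO library 19. No exact test of Cxcl2 or Ccl8 reached 0.05 (smallest p = 0.165).

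The receptor Il1r1 (ENSMUSG00000026072, chr1:40225080-40317257, plus strand) was the one member of the 37 in the edgeR test called between a single pair of groups. It transmits the signal of both interleukins described above. Its levels ranged in APP NLGF P16 KO mice from 12.9 to 19.3 CPM with a median of 16.1, against 19.2 to 40.3 CPM with a median of 23.5 in P16 KO mice. APP NLGF mice had 17.3, 15.8, 19.7, 21.4 and 16.3 CPM, against 17.0 to 19.4 CPM with a median of 18.9 in WT mice. P16 KO mice had the highest mean of the 4 groups, with the lowest P16 KO library just below the highest APP NLGF P16 KO library. The other 3 groups overlapped each other.

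Il1r1 fell, with a log2 fold change of -0.65 ± 0.13 in APP NLGF P16 KO relative to P16 KO mice (adjusted p = 0.0372), with 6 of 6 libraries below the P16 KO mean. P16 KO minus WT was 0.45 ± 0.13 (adjusted p = 0.109; 6 of 6 libraries above). The interaction was -0.61 ± 0.19 (unadjusted p = 0.00442, adjusted p = 0.897), so the App effects in the 2 P16 genotypes were not shown to differ. Library P16 KO 7 held 40.3 CPM, against 24.7 CPM in the next, and without it the fold change was -0.47 (adjusted p = 0.0279). The same library had the highest summed level of 10 lymphocyte and neutrophil markers, 8.52 CPM, against 2.83 CPM in the next P16 KO library and 1.31 to 2.09 CPM in APP NLGF P16 KO libraries, and the part of those cells was not tested. The call was lost without P16 KO 9, 10 or 12 and without APP NLGF P16 KO 19, 20, 21 or 23, with log2 values of -0.68 to -0.60 and a highest adjusted p of 0.132. A fit of the 2 groups alone gave -0.66 (adjusted p = 0.359).

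Tnfrsf1a, a receptor for tumour necrosis factor, was close to the threshold. APP NLGF mice had 11.6, 11.9, 12.4, 11.5 and 12.0 CPM, against 7.78 to 10.4 CPM in WT mice (log2 0.37 ± 0.08, adjusted p = 0.0587). These ranges did not overlap, as for 1.07% of 22806 genes with 50 reads or more. In P16 KO mice it averaged 11.2 ± 1.09 against 9.12 ± 0.946 CPM in WT mice (log2 0.29 ± 0.08, adjusted p = 0.0946). WT was thus the low group among the 4, with APP NLGF P16 KO mice at 11.8 ± 1.42 CPM. Tnfrsf1a in APP NLGF minus WT passed without WT 4, P16 KO 9 or APP NLGF P16 KO 21. Tnfrsf1b, the second receptor, averaged 4.99 ± 0.647, 4.81 ± 0.685, 4.51 ± 0.976 and 4.33 ± 0.619 CPM in APP NLGF P16 KO, APP NLGF, P16 KO and WT mice. Il6st, the signalling subunit shared by receptors of the Il6 family, was the steadiest member, at 102 to 104 CPM on average in every genotype and with a within-genotype SD of 0.07 on the log2 scale.

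Igfbp5 fell with the P16 KO label. IGF binding proteins carry insulin-like growth factors outside cells and limit or extend their action. Igfbp5 (ENSMUSG00000026185, chr1:72857932-72874884, minus strand) ranged from 104 to 199 CPM with a median of 132 in APP NLGF P16 KO mice, against 131, 153, 167, 194 and 193 CPM in APP NLGF mice. In P16 KO mice it ranged from 131 to 153 CPM with a median of 139, against 140 to 189 CPM with a median of 168 in WT mice. Both pairs overlapped, and 11 of 12 libraries labelled P16 KO lay below the mean of the group of the same App genotype without that label. The average P16 effect was -0.26 ± 0.09 (adjusted p = 0.0493). The exception, APP NLGF P16 KO 23 at 199 CPM, was the highest of all 23 libraries, and without it the effect was -0.33 (adjusted p = 0.00269). The call also held without WT 1, APP NLGF 13 or APP NLGF 14, and was lost without any one of the other 19 libraries, with a highest adjusted p of 0.108.

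Igfbp2, whose gene lies next to Igfbp5 on chr1:72824503-72852474 (plus strand), varied more within genotypes than any other tested member. Its SD within genotypes was 0.60 on the log2 scale, at the 96.7th percentile of the genes tested. It ranged from 34.0 to 64.9 CPM in APP NLGF P16 KO and from 42.4 to 83.4 in APP NLGF mice, against 32.0 to 108 in P16 KO and 24.9 to 89.6 CPM in WT mice. The genotypes overlapped almost wholly, and none of the 7 contrasts passed.

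This variation followed the RNA of the choroid plexus, the epithelium that secretes cerebrospinal fluid and lies against the hippocampus. The summed level of 14 choroid plexus markers, Ttr and Kl among them, ranged from 639 to 4107 CPM in APP NLGF P16 KO and from 2489 to 5700 in APP NLGF mice, against 1074 to 8151 in P16 KO and 384 to 5158 CPM in WT mice. All 14 had reads in every library. Within genotypes, Igfbp2 rose by 0.51 ± 0.05 log2 units per log2 unit of that sum (adjusted p = 9.29e-08), rank 46 of 19423 genes by p. It was the one member of 37 called for this slope, where 1.62% of all genes were called. WT 2 had the lowest sum and the lowest Igfbp2 (24.9 CPM), and P16 KO 12 had the highest of both. On the plaque-associated microglial sum 3 of 37 members were called, a share close to the 8.45% of all genes called. They were Igfbp2 (4.13 ± 1.00, adjusted p = 0.0166), Tnfrsf1a (1.00 ± 0.22, adjusted p = 0.00978) and Mmp2 (1.77 ± 0.43, adjusted p = 0.0145), all with positive slopes. On the oligodendrocyte sum 1 member was called, Mmp2 (1.05 ± 0.24, adjusted p = 0.0257), where 1.56% of all genes were. The outlying library APP NLGF P16 KO 21 was highest of all 23 for both of these sums, for Tnfrsf1a and for Mmp2. The Tnfrsf1a and Mmp2 slopes were not tested without that library. Each sum was fitted alone beside genotype, so the Igfbp2 slopes on the choroid plexus and plaque-associated sums were not separated. Slopes on the sums of meninges, mural cells, endothelial cells and microglia were called for 0 members, beside 0.196%, 0.0669%, 0% and 0.0206% of all genes.

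**Figure D3:**
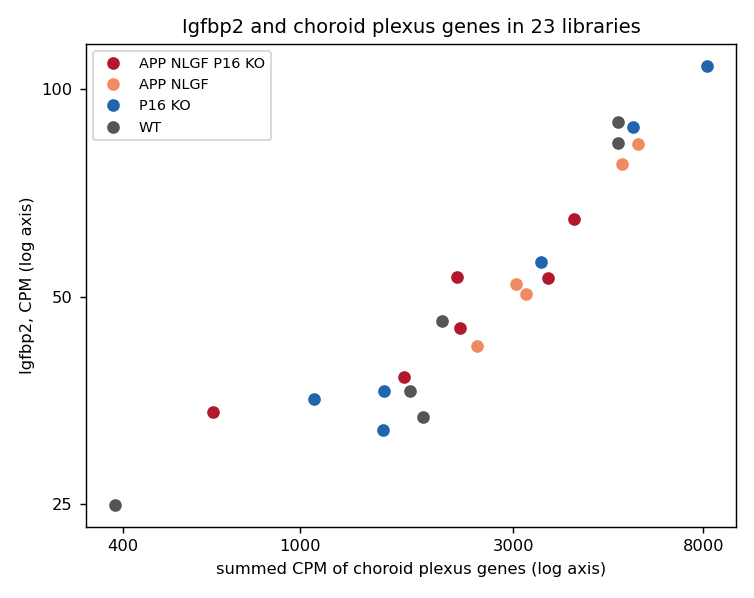
Igfbp2 level against the summed level of 14 choroid plexus markers in each of the 23 libraries, both in CPM on log axes, coloured by genotype. Igfbp2 climbs with the sum from 24.9 CPM in WT 2 to 108 CPM in P16 KO 12, and each genotype is spread along the same line.

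The other 4 binding proteins passed no contrast. Igfbp4, which inhibits IGF action, averaged 88.2 ± 8.61, 95.9 ± 11.6, 89.5 ± 6.25 and 88.6 ± 8.37 CPM in APP NLGF P16 KO, APP NLGF, P16 KO and WT mice. Igfbp6, which prefers IGF2, was 15.0 ± 2.75 CPM in APP NLGF P16 KO against 12.2 ± 0.635 CPM in APP NLGF mice (log2 0.31 ± 0.14, adjusted p = 0.205). Igfbp3 and Igfbp7 stayed between 20.4 and 22.7 CPM and between 14.3 and 17.3 CPM on average.

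Mmp12, macrophage elastase, was the only scarce member below 0.05 in the unadjusted exact tests between genotypes. Mmp12 (ENSMUSG00000049723, chr9:7344381-7369499, plus strand) gave 99 reads in all and was below the count filter. APP NLGF P16 KO libraries held 8, 5, 4, 14, 8 and 7 reads, against 0, 2, 3, 1, 0 and 4 in P16 KO libraries. APP NLGF libraries held 13, 11, 4, 3 and 5 reads, against 2, 0, 2, 0, 0 and 3 in WT libraries. In CPM neither pair overlapped: every knock-in library lay above every library of its partner group. At the margin the reads tied, and only the library totals set the libraries apart. APP NLGF P16 KO 20 and P16 KO 12 each held 4 reads (0.0823 and 0.0765 CPM). APP NLGF 16 and WT 6 each held 3 reads (0.0534 and 0.0515 CPM).

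In CPM, Mmp12 was 0.138 ± 0.0571 in APP NLGF P16 KO against 0.0300 ± 0.0301 in P16 KO mice (exact permutation test, two-sided, p = 0.00216, n = 6 and 6). It was 0.139 ± 0.0840 in APP NLGF against 0.0203 ± 0.0231 in WT mice (exact p = 0.00433, n = 5 and 6). Both are the smallest values these designs can give. They were not adjusted over the 28 tests of scarce members, so they did not face the rule used for the other members. They were the 2 of 28 tests of scarce members with p under 0.05. Of 22806 genes with 50 reads or more, 0.316% did not overlap with APP NLGF P16 KO above P16 KO, and 1.07% with APP NLGF above WT. Between APP NLGF P16 KO and APP NLGF mice, Mmp12 differed by -0.00116 CPM (exact p = 0.974). Mmp12 shares exon sequence in antisense with Mmp1b. If strand was not used, reads in the shared part would be ambiguous, and only reads unambiguous for 1 gene were counted. The microglial sum given above and the plaque-associated sum were also higher in every knock-in library than in every other library. Their part in the Mmp12 difference was not tested, nor was their relation to Mmp12 within genotypes.

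**Figure D4:**
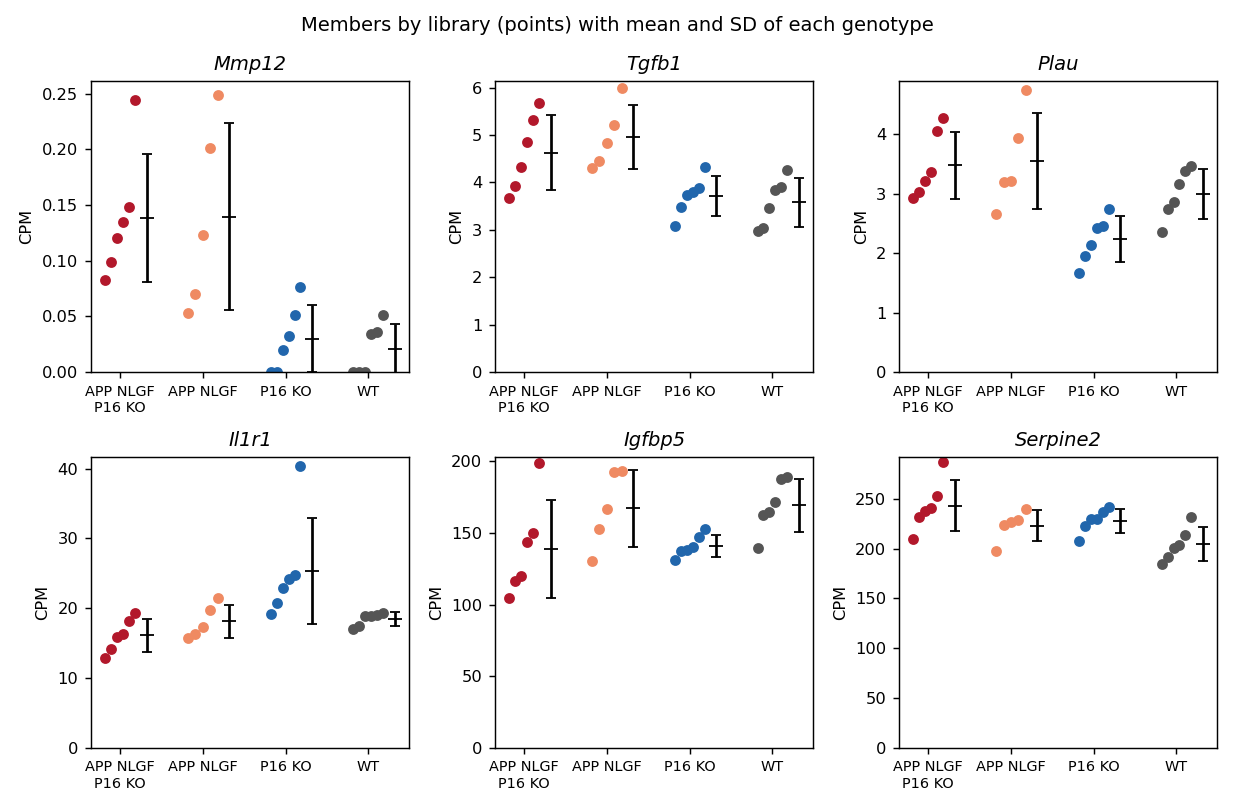
CPM of Mmp12, Tgfb1, Plau, Il1r1, Igfbp5 and Serpine2 in each library (points, sorted by value within a genotype), with the mean and SD of each genotype as a bar. For Mmp12 the APP NLGF P16 KO libraries lie above the P16 KO libraries and the APP NLGF libraries above the WT libraries, P16 KO 7 stands at 40.3 CPM for Il1r1, and the genotypes overlap for Igfbp5 and Serpine2.

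The more abundant metalloproteinases passed no contrast. Mmp14, a membrane-bound collagenase that activates Mmp2, averaged 10.0 ± 2.61, 11.2 ± 1.12, 10.5 ± 1.85 and 10.9 ± 1.77 CPM in APP NLGF P16 KO, APP NLGF, P16 KO and WT mice. Its average P16 log2 of -0.11 had an interval of -0.32 to 0.11. Mmp2, a gelatinase, was 2.95 ± 0.666 CPM in P16 KO against 2.44 ± 0.247 CPM in WT mice (log2 0.27, adjusted p = 0.370). In APP NLGF mice Mmp2 ranged from 2.80 to 3.21 CPM, above every WT library (at most 2.66 CPM; log2 0.28, adjusted p = 0.672). Such a separation held for 1.07% of 22806 genes with 50 reads or more. Mmp9, the other gelatinase, was 1.48 to 1.75 CPM on average. Mmp3, stromelysin, had 8 reads in APP NLGF P16 KO libraries and 0 in APP NLGF libraries, which allows up to 0.0115 CPM (3 reads over the group, counting error only), against 1 in P16 KO and 2 in WT libraries.

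The metalloproteinase inhibitors passed no contrast either, although Timp1 had the largest fold change of all tested members in the average App effect. Timp1 is the inhibitor that reactive astrocytes induce. Levels in APP NLGF P16 KO mice ran from 0.241 to 0.970 CPM with a median of 0.312, and APP NLGF mice had 0.210, 0.275, 0.298, 0.267 and 0.344 CPM. P16 KO mice ranged from 0.0957 to 0.418 CPM with a median of 0.116, and WT mice from 0.0549 to 0.361 CPM with a median of 0.127. All 11 knock-in libraries lay above the mean of the group of the same P16 genotype without the knock-in, but the ranges overlapped, with P16 KO 7, P16 KO 8, WT 2 and WT 6 reaching into them. The log2 fold change was 1.02 ± 0.32 (adjusted p = 0.175). Gfap, the astrocyte filament gene, rose by 0.52 ± 0.06 in the same average (adjusted p = 1.49e-05), and its relation to Timp1 was not tested. Gfap was the 1 of 10 astrocyte markers called there. Of the 10, 8 had a positive and 2 a negative log2 fold change, with a median of 0.09. Timp2 was 438 ± 35.3 CPM in APP NLGF P16 KO against 387 ± 27.6 CPM in P16 KO mice (log2 0.18 ± 0.07, adjusted p = 0.547), and 388 ± 42.8 and 399 ± 38.7 CPM in APP NLGF and WT mice. Timp3, bound to the matrix, averaged 130 to 141 CPM.

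In plasminogen activation, Plau rose in App knock-in mice and Serpine2 was higher with the P16 KO label. Plau (ENSMUSG00000021822, chr14:20836660-20843385, plus strand) encodes urokinase, the protease that turns plasminogen into plasmin. APP NLGF P16 KO mice ranged from 2.93 to 4.28 CPM with a median of 3.29, against 1.67 to 2.75 CPM with a median of 2.28 in P16 KO mice. APP NLGF mice had 3.19, 3.94, 3.21, 2.65 and 4.74 CPM, against 2.35 to 3.46 CPM with a median of 3.02 in WT mice. The first pair did not overlap, as for 0.316% of 22806 genes with 50 reads or more. The second pair did, with P16 KO the lowest of the 4 groups.

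The average App effect on Plau was a log2 fold change of 0.43 ± 0.10 (adjusted p = 0.0467), with 10 of 11 knock-in libraries above the mean of the group of the same P16 genotype without the knock-in. It was 0.64 ± 0.15 for APP NLGF P16 KO minus P16 KO (adjusted p = 0.0648) and 0.23 for APP NLGF minus WT. The average call held without WT 1, WT 3, P16 KO 8, APP NLGF 16, APP NLGF P16 KO 22 or APP NLGF P16 KO 23. Without any one of the other 17 libraries it was lost, with log2 values from 0.37 and adjusted p up to 0.107. With the microglial sum as a term the value was 0.10 (adjusted p = 0.925), a fit that cannot tell the sum and the knock-in apart. Plaur, the urokinase receptor, had 0.646 ± 0.221 and 0.764 ± 0.144 CPM in APP NLGF P16 KO and APP NLGF mice, against 0.421 ± 0.117 and 0.430 ± 0.185 CPM in P16 KO and WT mice (average App log2 0.72 ± 0.21, adjusted p = 0.134).

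Serpine2 (ENSMUSG00000026249, chr1:79794197-79861180, minus strand) encodes protease nexin, a secreted inhibitor of thrombin and of plasminogen activators that glia make. It ranged from 210 to 287 CPM with a median of 240 in APP NLGF P16 KO mice, against 240, 229, 223, 198 and 227 CPM in APP NLGF mice. P16 KO mice ranged from 207 to 242 CPM with a median of 230, against 185 to 232 CPM with a median of 202 in WT mice. Both pairs overlapped, with 11 of 12 libraries labelled P16 KO above the mean of the group of the same App genotype without that label. The average P16 effect was a log2 fold change of 0.14 ± 0.05 (adjusted p = 0.0448). The call held without WT 1, P16 KO 12, APP NLGF 13, APP NLGF 14, APP NLGF P16 KO 19 or APP NLGF P16 KO 23, and was lost without any one of the other 17 libraries (log2 0.12 to 0.15, adjusted p up to 0.104). The members' share called for this average (5.41%) was below that of all genes (13.0%).

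The growth and vessel factors passed no contrast. Vegfa, the main signal for vessel growth, averaged 51.9 ± 6.28 CPM in APP NLGF P16 KO, 56.2 ± 2.04 in APP NLGF, 56.3 ± 5.70 in P16 KO and 53.7 ± 4.55 in WT mice. Angpt1, which steadies vessels through the Tek receptor, was 9.87 ± 1.21 CPM in APP NLGF P16 KO against 8.18 ± 1.25 CPM in P16 KO mice (log2 0.27 ± 0.11, adjusted p = 0.531). In APP NLGF mice it was 8.82 ± 1.43, against 9.41 ± 0.996 CPM in WT mice. Hgf, a growth factor for neurons and epithelia, was 4.37 ± 0.545 CPM in P16 KO against 5.27 ± 0.831 CPM in WT mice (log2 -0.27 ± 0.12, adjusted p = 0.268). Fgf2, a growth factor of astrocytes, averaged 10.7 to 11.4 CPM and Pgf, a relative of Vegfa, 4.34 to 5.03 CPM. Fgf2 and Hgf each share exon sequence on the same strand with a predicted gene, and their counts are uncertain to that extent.

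Vcam1 and Icam1, the adhesion molecules that leukocytes bind on activated endothelium, did not pass. Vcam1 averaged 41.3 ± 4.56, 40.1 ± 4.36, 41.6 ± 3.53 and 39.5 ± 4.73 CPM in APP NLGF P16 KO, APP NLGF, P16 KO and WT mice. Icam1 was 3.09 ± 0.408 CPM in APP NLGF against 2.40 ± 0.576 CPM in WT mice (log2 0.35, adjusted p = 0.665). Lmnb1, the nuclear lamin that falls in senescent cells, averaged 8.22 ± 0.618, 8.18 ± 0.871, 7.98 ± 0.899 and 8.55 ± 0.961 CPM in that order of genotypes. Hmgb1, a chromatin protein released as an alarmin, was 15.2 ± 1.40 CPM in P16 KO against 14.1 ± 0.656 CPM in WT mice (log2 0.11, adjusted p = 0.401). Hmgb1 has many near-identical pseudogenes and only uniquely aligned reads were counted, so its level is uncertain. It also shares exon sequence on the same strand with Mm2pr.

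Outside the 44 members, 60 further genes of published senescent secretomes were tested. For the average App effect 3 of 60 rose and 0 fell (5%, beside 0.793% of all genes), with a median log2 of 0.03 over the list. The chemokine Ccl3 averaged 0.958 ± 0.311 and 1.20 ± 0.507 CPM in APP NLGF P16 KO and APP NLGF mice, against 0.197 ± 0.129 and 0.126 ± 0.0486 CPM in P16 KO and WT mice (log2 2.74 ± 0.25, adjusted p = 8.21e-08). Ccl4, its neighbour in function, rose by 2.17 ± 0.26 (adjusted p = 1.49e-05) and Selplg, a selectin ligand, by 0.30 ± 0.06 (adjusted p = 0.00904), each above the mean of the group of the same P16 genotype in 11 of 11 knock-in libraries. Ccl3 is also among the plaque-associated microglia markers. For the average P16 effect 3 of 60 rose (Nap1l4, Bex3 and Jun) and 1 fell (Egfr, a growth factor receptor, -0.21 ± 0.06, adjusted p = 0.0289). That is 6.67% of the list, beside 13.0% of all genes.

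Of 52 receptors and partners of the members tested, 2 rose in the average App effect (3.85%, beside 0.793% of all genes): Itgb2, the leukocyte integrin that binds Icam1 (0.49 ± 0.07, adjusted p = 0.000159), and Tgfbr2, the receptor of Tgfb1 (0.26 ± 0.05, adjusted p = 0.00636). Tgfbr2 averaged 22.2 ± 1.93 and 24.2 ± 0.687 CPM in APP NLGF P16 KO and APP NLGF mice, against 19.3 ± 2.0 and 19.3 ± 1.64 CPM in P16 KO and WT mice. In the average P16 effect 3 of 52 rose and 6 fell (17.3%, beside 13.0% of all genes). Cxcr4 and Ackr3, the receptors of Cxcl12, rose by 0.34 ± 0.07 (adjusted p = 0.00681) and 0.23 ± 0.06 (adjusted p = 0.0169). Among those that fell, the growth factor receptor Igf1r had a log2 fold change of -0.34 ± 0.07 (adjusted p = 0.0110), the insulin receptor Insr -0.17 ± 0.04 (adjusted p = 0.0168) and Igf2r -0.18 ± 0.05 (adjusted p = 0.0286). Igf1r averaged 49.7 ± 8.81 CPM in APP NLGF P16 KO against 66.5 ± 7.37 in APP NLGF mice, and 54.4 ± 3.55 in P16 KO against 65.3 ± 9.65 CPM in WT mice. Flt1, a receptor of Vegfa and Pgf, had -0.27 ± 0.07 (adjusted p = 0.0157).

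Of 36 regulators of the secretory phenotype, 0 passed for the average App effect (5 at an unadjusted p under 0.05, 13.9%, beside 10.4% of all genes). In the average P16 effect 1 rose and 4 fell (13.9%, beside 13.0% of all genes). Mapkapk2, a kinase that stabilises cytokine messages, rose by 0.15 ± 0.04 (adjusted p = 0.0207). Cgas, the sensor of cytosolic DNA (-0.56 ± 0.19, adjusted p = 0.0458), Notch1 (-0.29 ± 0.09, adjusted p = 0.0401), Mtor (-0.23 ± 0.07, adjusted p = 0.0305) and Chuk, a kinase of the NF-kappaB pathway (-0.13 ± 0.04, adjusted p = 0.0274), were lower. Of 16 cell cycle genes of senescence, 0 passed for App (2 at an unadjusted p under 0.05, 12.5%, beside 10.4% of all genes). With the P16 KO label 3 of the 16 rose (18.8%, beside 13.0% of all genes, 7.66% as higher). These were Cdkn2b, the kinase inhibitor encoded beside Cdkn2a (0.57 ± 0.16, adjusted p = 0.0272), Cdkn2d, a related inhibitor (0.22 ± 0.05, adjusted p = 0.0165), and their target Cdk4 (0.16 ± 0.04, adjusted p = 0.0206). The number of genes called for the average P16 effect ran from 925 to 5112 over the omission of each library, against 2522 with all, and its list counts carry that range.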

How the data were processed

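Hippocampal poly-A RNA of 23 mice in 4 genotypes was analysed from the authors' deposited gene counts, which were raw, whole-number counts with no normalization. Stranded 50-base single-end reads were trimmed with cutadapt 4.2, cleared of ribosomal sequence with Bowtie2 2.3.5 and aligned with STAR 2.7.10b, per the submitters' processing notes. Uniquely aligned reads unambiguous for 1 gene were counted on GRCm38, per the labels' design text. A later build is also listed there, but the coordinates of all 44 members equal those of GENCODE M21 on GRCm38. The study's own DESeq2 1.45.3 output was not used.

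Counts were tested with edgeR 4.0.16 in R 4.3.3: TMM scaling, filterByExpr with a minimum of 10 reads (19423 of 37173 genes kept), 1 robust quasi-likelihood model for the 4 genotypes, two-sided, Benjamini-Hochberg adjustment over all genes tested and a threshold of 0.05. The procedure was tested on simulated counts. CPM were scaled to each library's total count, errors of means are SD and errors of fold changes are SE. A fold change is the first-named group over the second. The 7 members under the filter were compared by two-sided exact permutation tests on CPM. Marker slopes used the log2 summed CPM of a marker list as a term beside genotype. Reads carry no molecular identifiers, so depth covers counting error only, and where nothing shows separate litters, p-values measure the spread between these mice.

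Alternatives were DESeq2 1.42.0, RLE size factors, 2 count filters (15 reads in 90% of libraries, and none), no robust dispersion, the compared groups alone, 1 surrogate variable (sva 3.50.0), omission of each library and of the outlying library, and, chosen after seeing the data, choroid plexus and microglial sums as terms. The members and lists were chosen with earlier results of these data known. Described in full are members past 0.05 in any of 7 contrasts and, per role, the member with the highest mean CPM and that with the smallest p; up to 6 called genes were named from other lists. Values of further members were given by counts, ranges or means, and Tnfrsf1a, Il1a, Il1b, Plaur and Igfbp2 were added after their values were seen.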

Additional observations from a re-analysis of the deposited data

Results flagged for a closer look

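In 17 of 176 groups of member and genotype, 1 library stood far from the others of its group by Dixon's test at 95%. Chance flags about 1 in 20 groups, and 14 members were involved. The reasons were not tested, and values are in CPM.

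APP NLGF P16 KO 19 was high for Timp1 (0.970, next 0.488), Ccl8 (0.277, next 0.101) and Angpt1 (12.2, next 9.69). This library had the lowest choroid plexus sum of its group (639 CPM) and the highest meningeal sum (323 CPM). APP NLGF P16 KO 21 was high for Tnfrsf1a (14.7, next 11.6). APP NLGF P16 KO 22 was low for Icam1 (2.17, next 2.93) and Lmnb1 (7.02, next 8.27).

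P16 KO 7 was high for Il1r1 (40.3, next 24.7) and for Ccl8 (0.154, next 0.0512). This library had the highest lymphocyte and neutrophil sum (8.52 CPM, next in its group 2.83), and its squared distance of 11.06 was just within the limit. P16 KO 8 was high for Il6st (106, next 102) and Lmnb1 (9.71, next 8.14). P16 KO 11 held 0 CPM of Il6, next 0.0817. Single reads set apart Cxcl2 in P16 KO 7 (0.0220) and in APP NLGF 14 (0.0183), and Mmp3 in P16 KO 12 (0.0191), with 0 reads in the other libraries of those groups. APP NLGF 17 was high for Il1a (1.60, next 1.03). WT 6 was high for Cxcl12 (75.5, next 65.4), and WT 5 was low for Timp2 (322, next 401).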

How the results depend on the processing

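None of the 5 member calls held under all alternatives and omissions. For P16 KO minus WT the 0 members called became 2 with DESeq2 and 1 without the outlying library, and 0 to 1 when single libraries were left out. For APP NLGF minus WT the 0 became 2 with DESeq2, 1 with 15 reads in 90% of libraries and 1 without the outlying library (0 to 1 over single omissions). For APP NLGF P16 KO minus APP NLGF, omissions gave 0 to 3, the 3 (Igfbp5, Il1a and Pgf) without APP NLGF P16 KO 23, when 4150 genes were called in all. For APP NLGF P16 KO minus P16 KO the 1 became 2 with DESeq2 and 0 with no count filter, the compared groups alone, the choroid plexus or microglial term, or without the outlying library (0 to 2 over omissions). The 2 for the average App effect became 4 with DESeq2, 1 with the choroid plexus term, 0 with the microglial term and 1 without the outlying library (0 to 3). The 2 for the average P16 effect became 1 with RLE size factors and 0 with no count filter, either marker term or without the outlying library (0 to 4). The interaction called 0 members in all 9 alternatives and all omissions. Causes were not tested. DESeq2 called 470, 153, 434, 101, 285 and 3308 of all genes in these 6 comparisons, where edgeR called 60, 62, 6, 48, 154 and 2522.

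Among scarce members, omissions left 2 to 3 tests under 0.05, the third being Tnf in APP NLGF minus WT without APP NLGF 13 (exact p = 0.0381). The Mmp12 difference between APP NLGF P16 KO and APP NLGF mice ran from -0.0226 to 0.0262 CPM over omissions. No paired analysis was possible because library numbers run on through the genotypes and none is shared between groups. Depth limits the 7 members under the count filter.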
